A study of Mus musculus with 3 samples.

Results

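Conjunctival epithelial cells were the cells that the authors' deposited annotation of mouse corneal epithelium labels Conj. The label held 2422 of 38111 cells in the table, with 536 in library 1, 848 in library 2 and 1038 in library 3. That was 5.65, 7.52 and 5.98% of the cells of each library. The members were taken by this label alone and set against the other epithelial labels of the annotation, which are LSC (737 cells), Basal (8829), TAC1 (4136), TAC2 (3186), Wing (13447) and Squam (5240). Those 6 classes held 35575 cells, and another 114 cells were labelled Immune.

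All 3 libraries came from healthy C57BL/6J mice and formed 1 group with no treatment. Library 1 was made from 4 corneas of 2 males aged 20 weeks, library 2 from 4 corneas of 2 females aged 11 weeks, and library 3 from 7 corneas of 7 males aged 10 weeks. Each library was therefore 1 pool of animals, and age, sex and number of mice cannot be told apart between them. An enzyme freed the epithelial sheets, trypsin separated their cells, and these were profiled with a droplet kit that reads 3′ ends and counts unique molecular identifiers (UMIs). The libraries held 187340736, 177449217 and 190393121 UMIs, of which the conjunctival cells held 11756363, 14805446 and 11789837. Doublets were not called with success: the caller marked 0 cells, so each library's 5% of cells with the highest doublet scores were left out in an alternative instead. Between libraries 142 of 37969 distinct barcodes were shared, and 0 of these belonged to conjunctival cells of both libraries.

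The conjunctiva is the mucous membrane that covers the white of the eye and the inner lids and meets the cornea at the limbus. Its epithelium is a stratified, non-cornified lining with interspersed mucus-secreting goblet cells, and it is known for keratins of mucosal and simple epithelia, such as the Krt4 and Krt13 pair, in place of the corneal keratin Krt12. Keratins are the filament proteins of epithelial cells, and each filament pairs a type I with a type II keratin. Corneal epithelium renews from limbal stem cells, divides in the basal layer and matures through wing cells to flat superficial cells.

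The start regions of 3 genes of the conjunctival class, Krt13, Krt7 and Muc1, and of the corneal keratin Krt12 are shown because, in the values below, the first 3 stood above LSC and Wing and near Squam, while Krt12 lay below Wing and Squam. They are the 250 bases before the RefSeq transcript start on GRCm38.p6, written 5′ to 3′ on the gene's strand, and 4 of the 7 genes looked up matched the RefSeq table. Krt4, Krt19 and Krt15 are named only. Capitals mark 3 motifs that were searched on both strands. The TATA box was spelled TATAAA. A loose form of the motif of AP-1 factors, TGANTCA, was used, in which any central base counts. For AP-2 factors the motif searched was GCCNNNGGC.
Krt13, chr11:100121567-100121816, minus strand: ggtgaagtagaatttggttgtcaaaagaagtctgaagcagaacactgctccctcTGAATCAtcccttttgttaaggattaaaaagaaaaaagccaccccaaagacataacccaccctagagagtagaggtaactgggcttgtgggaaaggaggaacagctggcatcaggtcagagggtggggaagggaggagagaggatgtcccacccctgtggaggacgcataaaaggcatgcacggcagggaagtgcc
Krt7, chr15:101412153-101412402, plus strand: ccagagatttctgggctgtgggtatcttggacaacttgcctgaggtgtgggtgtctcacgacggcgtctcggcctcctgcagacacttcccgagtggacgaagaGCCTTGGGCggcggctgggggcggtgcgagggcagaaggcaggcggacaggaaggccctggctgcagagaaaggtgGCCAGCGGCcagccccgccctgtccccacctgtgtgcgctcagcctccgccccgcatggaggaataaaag
Muc1, chr3:89228806-89229055, plus strand: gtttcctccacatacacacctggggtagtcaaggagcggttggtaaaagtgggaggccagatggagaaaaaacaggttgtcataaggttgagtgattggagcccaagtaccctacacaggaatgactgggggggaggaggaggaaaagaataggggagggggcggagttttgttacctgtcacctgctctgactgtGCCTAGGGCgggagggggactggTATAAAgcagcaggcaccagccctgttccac
Krt12, chr11:99422260-99422509, minus strand: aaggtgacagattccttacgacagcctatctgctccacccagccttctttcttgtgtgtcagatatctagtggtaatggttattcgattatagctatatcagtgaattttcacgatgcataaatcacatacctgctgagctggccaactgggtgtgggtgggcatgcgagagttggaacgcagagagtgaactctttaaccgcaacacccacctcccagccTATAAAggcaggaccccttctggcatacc
The TGANTCA match of Krt13, which has A as its central base, began 196 bases before the start. The 2 AP-2 matches of Krt7 began 146 and 70 bases before it. Whether any factor binds at these matches was not tested. Muc1 held an AP-2 match at 54 and a TATA box at 31 bases, and Krt12 a TATA box at 29. Of 32851 mouse promoter windows of this length, 12.4% held TATAAA, 6.75% TGANTCA and 13.7% GCCNNNGGC.

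The label was described with markers, in CPM, the UMIs of a gene per 1000000 UMIs of the class. Conj was read as conjunctival from such markers, and the labels were made from the same cells' expression. The marker levels therefore describe the class and are no independent check of its name. Krt13, Krt4, Krt19, Krt7 and Krt15 together reached 40771, 41463 and 34694 CPM in conjunctival cells of libraries 1, 2 and 3, mostly from Krt15. The next class, LSC, had 10403, 10411 and 12554 CPM, and Immune cells 385, 689 and 536 CPM, so the conjunctival values stood above all others in each library. Immune and fibroblast markers were near 0. The 9 immune markers in the table summed to 0.425, 1.15 and 0.424 CPM with Lyz2 at 0, against 29664 to 41109 CPM in Immune cells, and the 2 fibroblast and keratocyte markers to at most 0.763 CPM. Markers of dividing cells summed to 5.70, 20.7 and 10.2 CPM, against 270 to 372 CPM in LSC. For goblet cells, Spdef, the transcription factor of goblet fate, was at 0 UMIs. The 5 goblet markers in the table summed to 53.1, 51.2 and 40.2 CPM, near the 47.2, 38.4 and 64.6 CPM of LSC. Muc5ac, Muc5b and Gcnt3 were absent from the table. Eyelid epidermis markers summed to 45.1 to 52.2 CPM, close to the 39.1 to 48.1 CPM of LSC, with Flg, the filaggrin of cornified skin, at 0. Among them, Krt1, Krt10 and Lor were higher than each of the 6 classes in the fit described below. Krt1 was there at 15.6 CPM against 4.90 in the mean of the others, and its call held in 15 of 16 settings tried. The calls of Krt10 and Lor held in 5 of 16 and 6 of 14 settings. The 3 Schwann cell and nerve markers in the table summed to 102, 116 and 98.9 CPM, above LSC (64.0 to 77.2) and Wing (70.1 to 95.5) and below Squam (161 to 193). The 5 corneal markers summed to 13075, 11518 and 12535 CPM, against 11550 to 15655 in Squam and 41428 to 44814 in Wing.

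Conjunctival cells held more UMIs than the mean of the other classes, but not more than every class. Median UMIs per conjunctival cell were 21230, 16363.5 and 9716.5, with a mean of 15770 against 12246 over the other classes (higher in 3 of 3 libraries, exact two-sided sign-flip test, p = 0.25, the smallest that 3 libraries allow). Squam had a higher mean of 16695 UMIs, and Wing had 15447. At 2000 UMIs per cell the median number of genes was 858.5, with a difference of 0.78 from the other classes (exact p = 1), and at 4000 UMIs it was -12.9 (below 0 in all 3 libraries, exact p = 0.25). Mitochondrial UMIs were 1.74 against 1.77% (exact p = 0.75).

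All genes were then tested on counts summed by library and class, 21 sums in 1 edgeR quasi-likelihood fit with library as a block, and p-values were adjusted by Benjamini and Hochberg over 13472 genes. The labels were made from the same cells' expression, so an adjusted p here measures agreement among 3 pools and is no independent test of the labels. CPM below are scaled by the trimmed mean of M-values (TMM) over the 7 classes unless said otherwise, and are means ± SD over 3 libraries. TMM centres the bulk of genes, and where it is left out, so that each sum is scaled by its own total alone, the median gene moved by -0.51 (log2) against LSC, -0.18 against Wing and 0.85 against Squam. The share of higher genes among those called then went from 53.8 to 26.4% against LSC, from 50.6 to 29.7% against Wing and from 47.1 to 83.2% against Squam. For this reason a gene is called higher than every other class below only where both scalings call it, or the exception is stated beside it.

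Against the mean of the 6 other classes, 4954 genes were higher in conjunctival cells (36.8% of those tested) and 4558 lower (33.8%). This contrast averages the log2 levels of the 6 classes with equal weight. A gene very high in 1 class can therefore be called higher and still lie below the mean CPM. Krt23 was higher by 2.99 (log2), at 12.9 CPM against a mean of 58.6 CPM over the 6 classes. Where CPM are given for the mean of the others, they are plain averages. With own totals the share of higher genes among those called went from 52.1 to 38.7%. Called differences over 2-fold were fewest against Wing (1936 genes, 14.4% of those tested), followed by Squam (3906, 29.0%) and LSC (4446, 33.0%), and most against TAC1 (6062, 45.0%). A gene had to exceed all 6 classes in separate contrasts to count as higher than each: 598 did (4.44%), 276 of them under both scalings, and 275 were lower than each (2.04%), 60 of them under both scalings. Of the 598, the class that came nearest was Wing for 259 genes, Squam for 193 and LSC for 119.

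Mucosal and simple epithelial keratins marked the class. Krt4, the type II keratin of wet stratified epithelia, was at 3869, 4539 and 2527 CPM in conjunctival cells of libraries 1, 2 and 3. Its next class was LSC with 542 CPM, and Squam had 384 and Wing 250 CPM. The groups did not overlap, and against LSC, the closest class, Krt4 was higher by 2.77 (log2, SE 0.34, adjusted p = 1.1e-05). Krt19, a small type I keratin of simple and ductal epithelia, was at 3530, 3515 and 3621 CPM, nearly the same in each library. Squam had 718 CPM, LSC 327 and Wing 187, and the smallest difference was 2.33 (log2, SE 0.34, adjusted p = 4.3e-05, against Squam). Krt15, a type I keratin of basal and stem-like keratinocytes, was the most abundant of the markers, at 29980, 30657 and 25011 CPM against 7009 ± 965 in LSC and 6861 ± 1618 in Squam. It was higher than each class, by 1.96 (log2, SE 0.43) over LSC at least, but without library 1 the call over each class was lost.

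Krt8, the simple epithelial type II keratin, followed at a lower level, with 102, 111 and 82.7 CPM against 20.1 in LSC, a difference of 2.23 (log2, SE 0.37, adjusted p = 0.000138). Its usual partner Krt18 was at 2.90 ± 0.37 CPM, below the 17.6 CPM of LSC, and its difference from the mean of the others was -0.05 (adjusted p = 0.852). Krt13, the partner of Krt4, was at 7415, 7891 and 6789 CPM in conjunctival cells, above Wing (1940 CPM), LSC (750) and Basal (25.5). Its order against Squam depended on the scaling. Squam had 9661 CPM by TMM and the difference was -0.39 (log2, adjusted p = 0.145), while with own totals conjunctival cells had 6554 and Squam 4743 CPM, a difference of 0.47 (adjusted p = 0.0838). Krt7, another simple epithelial keratin, behaved alike, at 588, 962 and 538 CPM against 122 in LSC and 10.1 in Wing, with a difference from Squam of -0.61 by TMM and 0.25 (adjusted p = 0.241) by own totals.

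The corneal keratin Krt12 ran the other way. It was at 4921, 5425 and 5322 CPM in conjunctival cells, against 28534 ± 1033 in Wing, 20589 ± 3405 in Squam, 16716 in Basal and 3970 ± 526 in LSC. It was lower than in Wing by 2.45 (log2, SE 0.12, adjusted p = 4.9e-10) and lower than in Squam by 1.98 (SE 0.12), and against LSC it was higher by 0.40 (adjusted p = 0.00742) with TMM and at -0.11 (adjusted p = 0.361) with own totals.

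**Figure D1:**
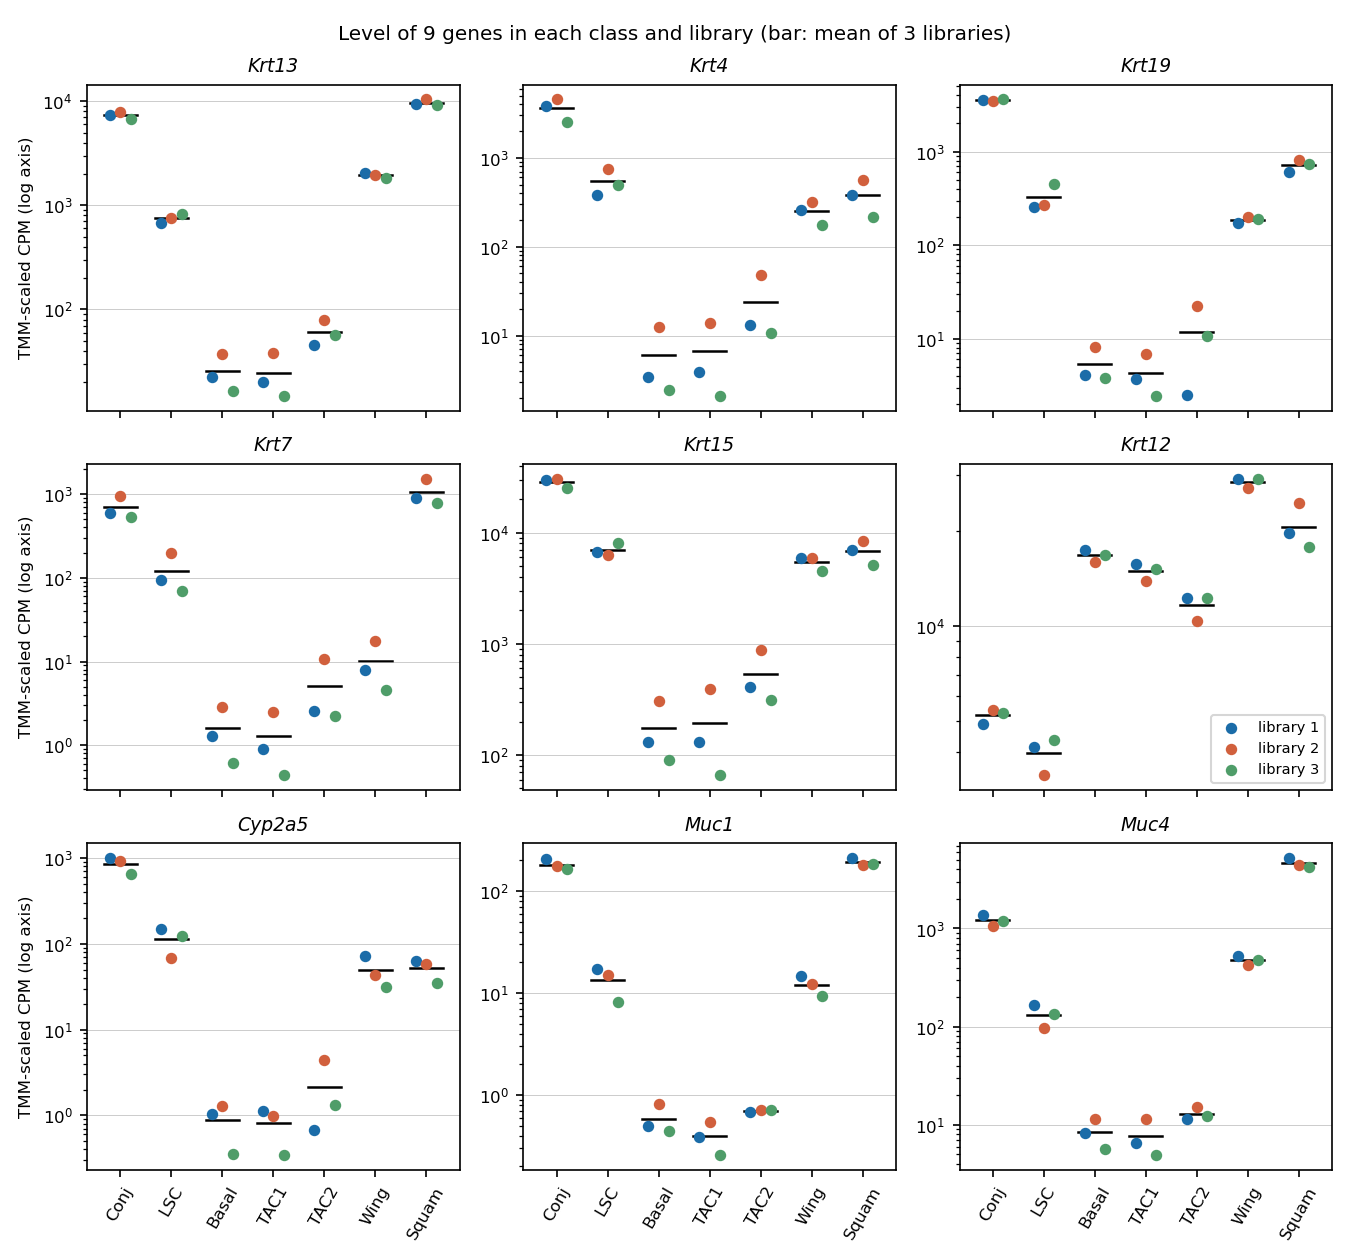
TMM-scaled CPM (log axis) of 9 genes in the 7 epithelial classes, with 1 dot per library and a bar at the mean of 3 libraries. Conjunctival cells stand above every class for Krt4, Krt19, Krt15 and Cyp2a5, stand near Squam for Krt13, Krt7 and Muc1, and lie below Wing and Squam for Krt12.

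Shares of cells with a UMI were compared after thinning each cell to 2000 UMIs, with shallower cells left out. Krt4 had a UMI in 88.1% ± 3.60 of conjunctival cells (97.0% unthinned), Krt19 in 82.3% ± 1.71, Krt13 in 86.3% ± 1.83 and Krt15 in 100%. Immune cells, which should lack keratins, gave 11.6% for Krt4, 0.952% for Krt19, 26.4% for Krt13 and 37.3% for Krt15. Krt7 had a UMI in 41.1% ± 7.47 of conjunctival and 0% of Immune cells. Krt12 had a UMI in 79.0% ± 1.71 of conjunctival cells and 94.9% ± 6.55 of Immune cells. The Immune shares rest on 16, 35 and 5 cells of libraries 1, 2 and 3. Median depths were 13930 UMIs in conjunctival and 1975 in Immune cells. Thinning does not make the part of RNA from outside the cell equal at such unlike depths. The Immune shares therefore do not tell what part of conjunctival Krt12 is background.

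The genes lie in 2 clusters. On chromosome 11 of GRCm38 the type I genes Krt13 (100117327-100121566), Krt15 (100131758-100135928) and Krt19 (100140810-100148665) are neighbours on the minus strand, and Krt12 lies farther off at 99415666-99422259. On chromosome 15 the type II genes Krt4 (101918535-101924735) and Krt8 (101996698-102004482) lie between Krt7 (101411043-101430313) and the type I gene Krt18 (102028180-102032027). Of 13 mucosal, simple and stress keratins tested, 12 were higher than the mean of the other classes and 0 lower, with a median of 4.55 (log2) beside -0.02 over all genes. The counts against the mean of the others, here and for the lists below, stand beside 36.8% higher and 33.8% lower among all genes. Against LSC 11 were higher and 1 lower, where 33.6% of all genes were higher and 28.8% lower. Against Wing 12 were higher and 0 lower (26.2 and 25.6% of all genes), and against Squam 7 and 4 (30.7 and 34.6%), or 7 and 2 with own totals. Counts against LSC, Wing and Squam for the lists below stand beside these same shares. With own totals, 26.4% of all called genes were higher against LSC, 29.7% against Wing and 83.2% against Squam.

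**Figure D2:**
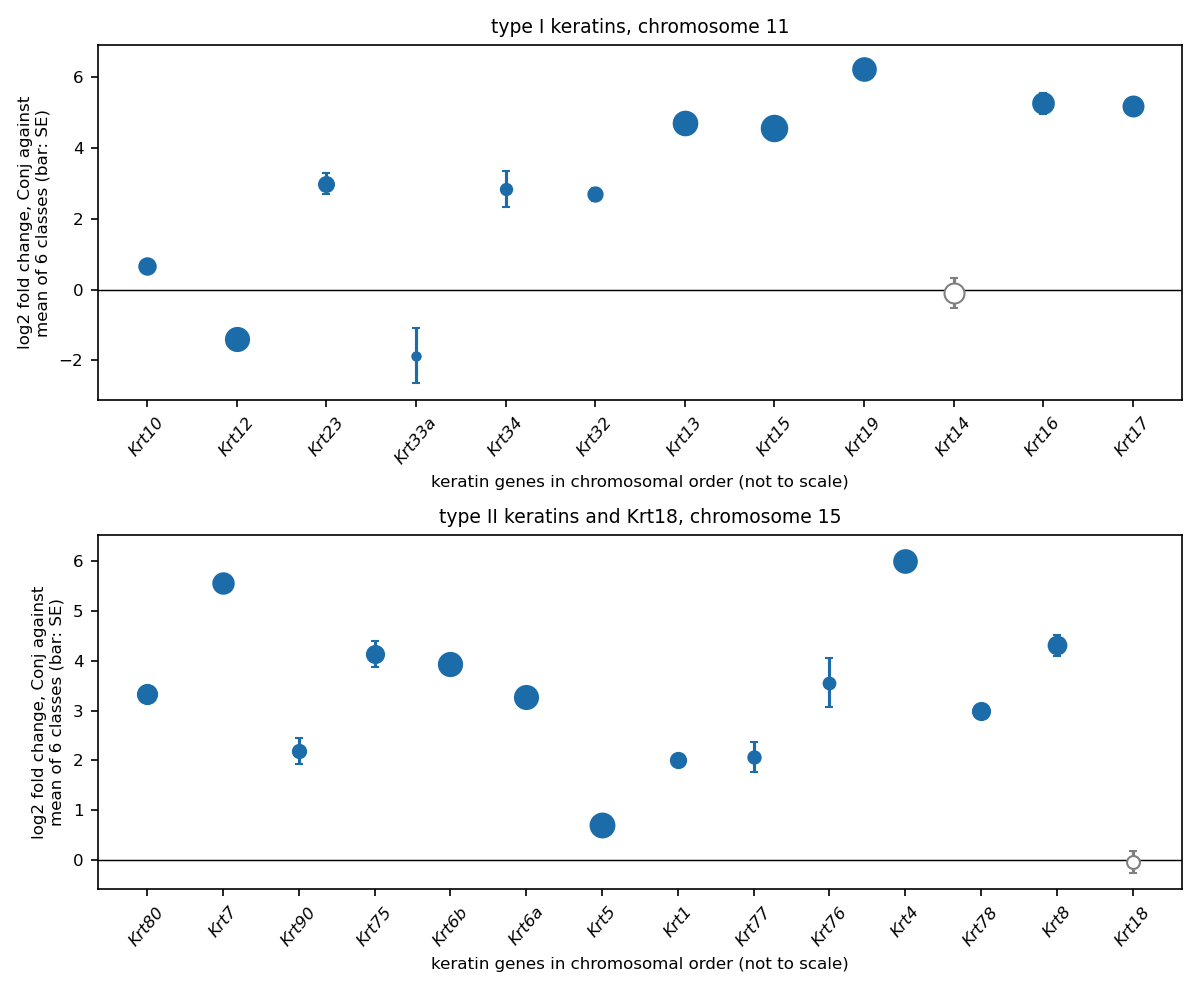
Log2 difference of conjunctival cells from the mean of the 6 other classes (points, bars are the standard error of the fit) for keratin genes in chromosomal order, type I on chromosome 11 and type II with Krt18 on chromosome 15, with larger points for more abundant genes and open grey points for genes not called. Krt13, Krt15 and Krt19 stand side by side at 4.71, 4.55 and 6.23, Krt4 at 6.00, and Krt12 in the same type I cluster at -1.39.

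Beyond the keratins, Cyp2a5 stood out. This cytochrome P450 oxidises small foreign compounds, and 3′ reads may be shared with its near copy Cyp2a4, so its value is uncertain to that degree. It was at 1002, 918 and 647 CPM in conjunctival cells, against 114 CPM in LSC, 52.3 in Squam, 48.9 in Wing and 0.891 in Basal. The smallest difference was 2.97 (log2, SE 0.30, adjusted p = 1.5e-06, against LSC), and 2.46 with own totals. At 2000 UMIs it was seen in 52.2% ± 6.39 of conjunctival, 6.61% of LSC and 0% of Immune cells. Cbr2, a carbonyl reductase, was at 3616, 3016 and 2586 CPM against 944 in LSC (1.72, SE 0.12), and Por, the reductase that passes electrons to cytochromes P450, at 288, 294 and 239 CPM against 224 in Squam (0.28, SE 0.07). Gsta3, a glutathione transferase with close copies, was at 618 ± 69.5 CPM against 386 in LSC (0.68, SE 0.06). These 4 genes were higher than each class under both scalings. Of 30 glutathione and xenobiotic genes tested 17 were higher than the mean of the others and 8 lower, with a median of 0.30, and the most abundant of them, Gsto1, was at 41216 ± 3448 CPM and lower than in Squam (101500 CPM) by 1.30 (log2, SE 0.13).

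Of 18 retinoid genes 11 were higher than the mean of the others and 4 lower, with a median of 0.80, beside 36.8 and 33.8% of all genes. Against LSC 8 were higher and 8 lower, and against Squam 11 and 3. With own totals the Squam counts were 15 and 1, under a scaling where 83.2% of all called genes were higher. Rbp2, a cellular retinol-binding protein, was at 3101, 3310 and 3576 CPM against 2113 ± 352 in Squam and 1831 ± 218 in Wing, its closest classes. All 3 libraries lay above every other class mean, and the difference from Squam was 0.66 (log2, SE 0.13, adjusted p = 0.000403). Adh1, an alcohol dehydrogenase that can oxidise retinol, was at 680, 699 and 572 CPM against 368, 340 and 327 in Wing (0.92, SE 0.07). Rbp2 and Adh1 were higher than each class under both scalings. Adh7, another such dehydrogenase, was at 418 ± 74.4 CPM, below LSC (916) and Wing (623).

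Several other genes exceeded each class by over 2-fold. There were 132 of these with TMM and 76 under both scalings, of which 14 reached 50 CPM, Krt4, Krt19 and Krt15 among them. St3gal4, which adds sialic acid to glycans, was at 52.5, 61.7 and 39.2 CPM against 13.0 in LSC and 3.17 in Squam (2.12, SE 0.22, over LSC). Pfn2, an actin-binding profilin, was at 50.2 ± 10.1 CPM and exceeded Wing, its closest class, by 2.04 (SE 0.08). Areg, an EGF receptor ligand, was at 76.7, 102 and 56.1 CPM against 29.5 ± 7.68 in Squam (1.40, SE 0.17), and Parm1, a mucin-like membrane protein, at 84.3 ± 24.1 CPM (1.60 over Wing, SE 0.16). Acsm1, a medium-chain acyl-CoA synthetase, was at 334, 280 and 249 CPM against 104 ± 10.6 in LSC (1.48, SE 0.09), a difference of 0.97 with own totals. Upp1, a uridine phosphorylase, exceeded each class under both scalings but by less than 2-fold with TMM, at 611, 863 and 623 CPM against 394 ± 130 in Squam (0.86, and 1.72 with own totals).

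**Figure D3:**
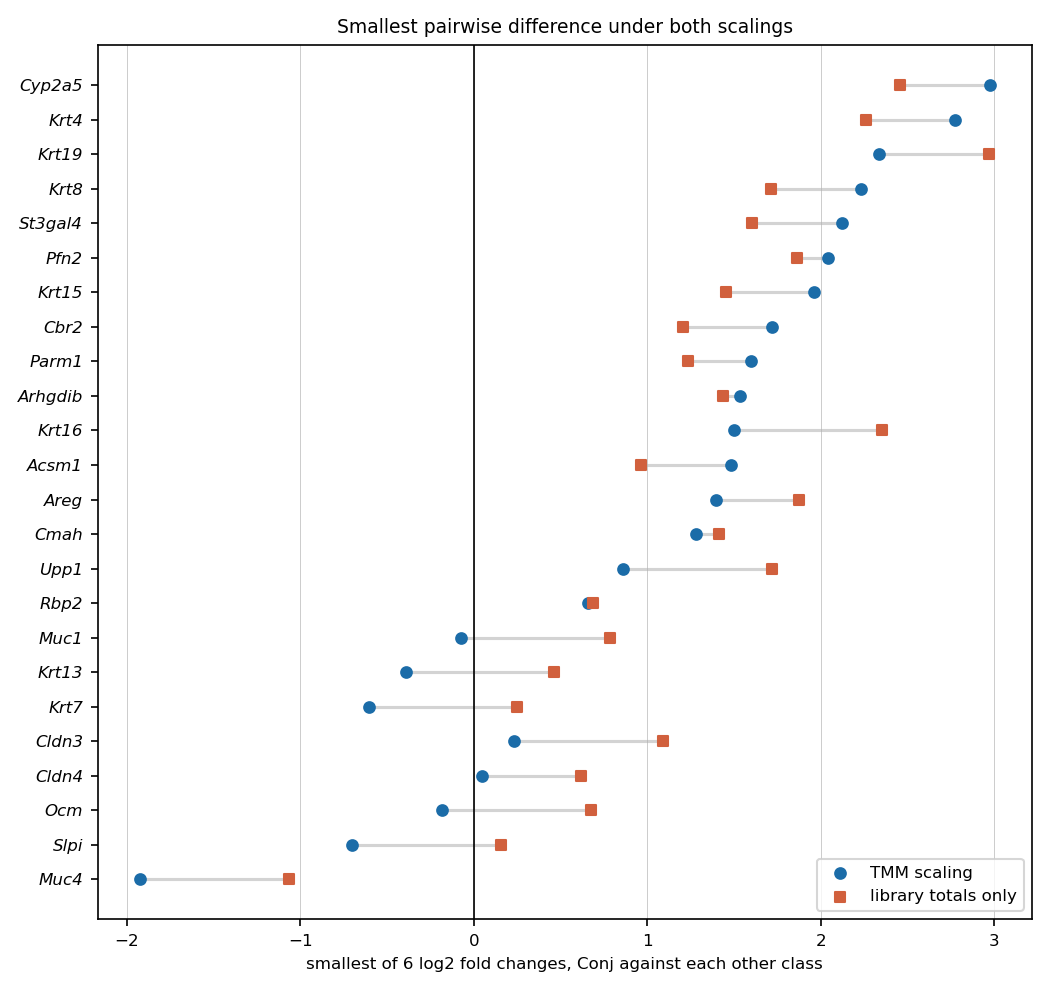
Smallest of the 6 log2 differences of conjunctival cells from the other classes, for 24 genes, with TMM scaling and with library totals alone. Points right of 0 lie above every class. Krt7, Krt13, Muc1, Ocm and Slpi change side with the scaling, and Cyp2a5 lies at 2.97 with TMM and 2.46 with library totals.

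Among the genes lower than in every class, the widest gaps at 50 CPM or more in the other classes were those of Aprt, an adenine salvage enzyme, at 30.1 ± 11.0 CPM against 141 in the mean of the others, and Palld, an actin-bundling protein, at 13.8 ± 2.70 against 54.9 CPM. Aprt was lower by 1.25 (log2) than in its closest class and Palld by 1.23. Zfp36l2, an RNA-binding protein that promotes mRNA decay, was at 19.4 ± 1.91 against 93.7 CPM, and Glul, glutamine synthetase, at 112 ± 33.1 against 463 CPM. Aprt, Palld and Zfp36l2 were lower than each class under both scalings, while Glul against Squam was at 0.15 (adjusted p = 0.311) with own totals.

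Membrane mucins, which form the glycocalyx that holds the tear film, were mostly high, with 10 of 12 mucin and galectin genes higher than the mean of the others, 1 lower and a median of 2.06. Muc1 was at 205, 178 and 164 CPM against 13.5 in LSC and 12.1 in Wing, and its difference from Squam was -0.07 (adjusted p = 0.425) with TMM and 0.78 (adjusted p = 1.2e-09) with own totals. Muc4, the most abundant, was at 1370, 1071 and 1199 CPM, between Wing (475 CPM) and Squam (4613 CPM), and lower than Squam by 1.92 (log2, SE 0.23, adjusted p = 5.1e-06). Muc20 likewise was at 167 ± 4.77 CPM, between Wing (72.3) and Squam (751). Against LSC 10 of the 12 genes were higher and 1 lower, and against Squam 4 were higher and 5 lower (7 and 4 with own totals). Enzymes that build mucin-type glycans were mixed, with 11 of 15 higher than the mean of the others and 4 lower. Besides St3gal4, Galnt12, which starts O-glycan chains, exceeded each class under both scalings at 18.6 ± 2.18 CPM (0.53 over Wing, SE 0.10), as did the galactosyltransferase gene B4galt1 at 62.8 ± 12.6 CPM (0.41 over Squam, SE 0.08). Of 4 goblet and secretory genes tested 2 were higher than the mean of the others and 1 lower. Agr2, a secretory protein of goblet cells, was at 54.1, 52.5 and 40.3 CPM, with a difference of 0.64 (adjusted p = 0.164) from LSC (34.3 ± 9.92 CPM) and of 5.42 (SE 0.51) from Squam (1.19 CPM).

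Defence genes were mostly above the mean of the others and below Squam. Of 11 tested, 7 were higher than the mean of the others and 1 lower, and against Squam 2 were higher and 9 lower (2 and 6 with own totals). Pglyrp1, a peptidoglycan-binding antibacterial protein, was at 5136, 6301 and 4642 CPM against 8788 ± 2094 in Squam and 1253 ± 214 in Wing. Against Squam it was lower by 0.69 (log2, adjusted p = 0.0135) with TMM but at 0.16 (adjusted p = 0.527) with own totals. Of 16 antigen presentation genes 8 exceeded the mean of the others and 1 was lower, and of 25 interferon genes 15 and 6, beside 36.8 and 33.8% of all genes. Against Squam 10 of the 16 and 19 of the 25 were lower (9 and 14 with own totals), where 34.6% of all genes were lower with TMM. Ifitm1, an interferon-induced membrane protein, was at 7513, 11485 and 8992 CPM against 17079 ± 4132 in Squam and 1544 ± 457 in Wing. It was lower than in Squam by 0.87 (log2, adjusted p = 0.0394) with TMM but at -0.010 (adjusted p = 0.981) with own totals. Psmb8, an immunoproteasome subunit, was at 407 ± 29.7 CPM, below Squam by 2.04 (SE 0.16), and by 1.18 with own totals. Tap1, the peptide transporter for class I molecules, was at 82.9 ± 7.96 CPM, above each class under both scalings, but by 0.17 (log2) over Squam (73.3 ± 3.85 CPM) with TMM and in 9 of 16 settings tried.

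Among 16 cytokine genes 10 were higher than the mean of the others, 3 lower and the median 1.33. Il33, a nuclear alarmin of barrier epithelia, was at 24.8, 41.5 and 22.0 CPM against 8.11 ± 2.47 in LSC and at most 2.45 CPM elsewhere, a difference from LSC of 1.84 (log2, SE 0.17, adjusted p = 1.1e-10). Il1rn, the natural antagonist of interleukin-1, was at 45.7, 46.6 and 49.8 CPM against 31.2 ± 2.71 in Squam (0.60, SE 0.10). Both exceeded each class in all 16 settings. Tnf, by contrast, was at 0.0888 ± 0.0098 CPM, while Squam had 91.7 ± 54.1 CPM.

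Of 36 serpins, proteases and inhibitors 25 were higher than the mean of the others, 6 lower and the median 1.05, while against Squam 7 were higher and 23 lower (17 and 15 with own totals). Serpinb1a, an inhibitor of neutrophil proteases, was at 342, 330 and 336 CPM against 171 ± 15.3 in Squam (0.98, SE 0.09), and Mmp15, a membrane-bound matrix protease, at 50.7, 55.2 and 34.2 CPM against 16.7 ± 3.00 in Wing (1.47, SE 0.09). Both exceeded each class under both scalings. Spink5, the inhibitor of skin kallikreins, also did, but its libraries spread widely, at 183, 310 and 92.0 CPM, and the call held in 11 of 16 settings. EGF receptor ligands and receptors gave 9 of 14 higher and 2 lower, with Ereg at 58.0, 60.4 and 50.2 CPM against 16.5 ± 1.81 in Wing and 76.4 ± 11.6 in Squam. Against Squam, Ereg was at -0.43 with TMM and 0.42 with own totals.

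Junction genes were higher in conjunctival cells than in the mean of the others, and genes of basement membrane adhesion lower. Of 16 claudin and tight junction genes 15 were higher than the mean of the others and 1 lower (median 1.56), as were 21 of 22 desmosome and cornified envelope genes with 1 lower (median 1.66). Against Squam the claudin and tight junction genes gave 3 higher and 10 lower (7 and 8 with own totals), and against Wing 13 and 1 (10 and 1). The desmosome and cornified envelope genes were split against both classes. Against Wing 11 were higher and 7 lower (6 and 7 with own totals), and against Squam 12 and 8 (16 and 4). Cldn7, a claudin of many epithelia, was at 1139, 1478 and 1134 CPM, above LSC by 2.32 (SE 0.09), and Cldn3 was at 314, 407 and 299 CPM against 110 ± 7.37 in Wing and 291 ± 65.7 in Squam. Of 18 hemidesmosome and basement membrane genes 13 were lower and 2 higher (median -1.41). Col17a1, the collagen of hemidesmosomes, was at 76.8, 102 and 79.9 CPM against 434 ± 20.3 in LSC, lower by 2.33 (SE 0.12). Itgb4, the integrin of hemidesmosomes, was at 7.39, 12.6 and 6.96 CPM against 85.9 ± 11.7 in LSC, lower by 3.25 (SE 0.12). Against Squam 7 of these 18 were higher and 4 lower, beside 30.7 and 34.6% of all genes. With own totals the counts were 13 and 3, under a scaling where 83.2% of all called genes were higher. Those 13 and 3, and the 16 and 4 of the desmosome list, were near that share.

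The Wnt and Notch lists held genes called in both directions. Of 21 Wnt genes 9 were higher than the mean of the others and 10 lower, and of 14 Notch genes 5 and 4. The Notch counts were near the 36.8 and 33.8% of all genes, with a median of -0.10 beside -0.02, and show no trait of that list. The Wnt ligand gene Wnt10a was at 3.03, 5.66 and 3.86 CPM against 77.8 ± 22.9 in LSC, and Jag2, a Notch ligand, at 3.69, 7.90 and 3.76 CPM against 64.5 ± 12.8. The differences were -4.21 (log2, SE 0.12) and -3.62 (SE 0.18). Another Wnt ligand gene, Wnt4, was at 590, 671 and 518 CPM, higher than in LSC (344 ± 37.0 CPM) by 0.78 with TMM and 0.27 with own totals. Against Basal (499 ± 66.3 CPM) Wnt4 was at 0.25 with TMM and -0.17 with own totals. Cell cycle genes were low, as 22 of 22 S phase and 23 of 23 G2 and M phase genes were lower than the mean of the others (medians -1.95 and -1.91). Against Wing, where markers of dividing cells summed to 11.3 to 13.7 CPM, 2 of the S phase genes were lower and 0 higher, and 1 of the G2 and M phase genes was lower and 5 higher.

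Of 38 transcription factors 21 were higher than the mean of the others and 13 lower (17 and 14 with own totals), with a median of 0.26, beside 36.8 and 33.8% of all genes. Elf3, an epithelial ETS factor, was at 731, 723 and 675 CPM, above Wing (380 ± 27.3) by 0.90 and below Squam (2420 ± 80.8) by 1.77. Barx2, a homeobox factor of mucosal and gland epithelium, was at 61.0, 66.4 and 39.2 CPM, near LSC in mean (55.0 ± 15.6, difference 0.04, SE 0.31) and above Wing by 4.41 (SE 0.30). Pax6, the eye master regulator, was at 354 ± 35.2 CPM, with a difference from the mean of the others of -0.07 (log2, SE 0.04) by TMM and -0.27 by own totals. Of 16 corneal identity genes 4 were higher and 8 lower. Tkt, a transketolase and corneal crystallin, was at 833, 951 and 818 CPM against 2623 ± 140 in Wing and 2024 ± 149 in LSC, and Dapl1 at 227, 301 and 374 CPM against 2485 ± 432 in Wing. Gpha2, a marker of limbal cells, was at 100.2 ± 44.4 CPM against 2123 ± 117 in LSC.

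Water and ion transport genes were mixed, with 11 of 19 higher than the mean of the others, 6 lower and a median of 0.47. Aqp3, a channel for water and glycerol, was at 2052, 1600 and 1873 CPM against 1446 ± 233 in Wing (0.36, SE 0.07), a difference that missed the threshold with own totals (0.18, adjusted p = 0.0599). Slc12a2, the sodium, potassium and chloride importer, was at 210.2, 186 and 266 CPM, above LSC (62.8 ± 9.58) by 1.81 and below Squam (1343 ± 190) by 2.61. Among 16 Ly6 family genes 7 were higher than the mean of the others and 7 lower. Ly6e was at 910.5 ± 89.9 CPM, above LSC (397) under both scalings, by 0.69 with own totals. Against Squam (1443) it was at -0.68 (adjusted p = 0.00373) with TMM and 0.17 (adjusted p = 0.403) with own totals. Of 16 immediate early and stress genes, which can rise when tissue is taken apart, 5 were higher than the mean of the others and 3 lower (4 and 6 with own totals), beside 36.8 and 33.8% of all genes. Against LSC 9 were higher and 0 lower (33.6 and 28.8% of all genes), and against Squam 2 and 11 (30.7 and 34.6%), or 2 and 8 with own totals. Their part in the other differences was not tested.

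**Figure D4:**
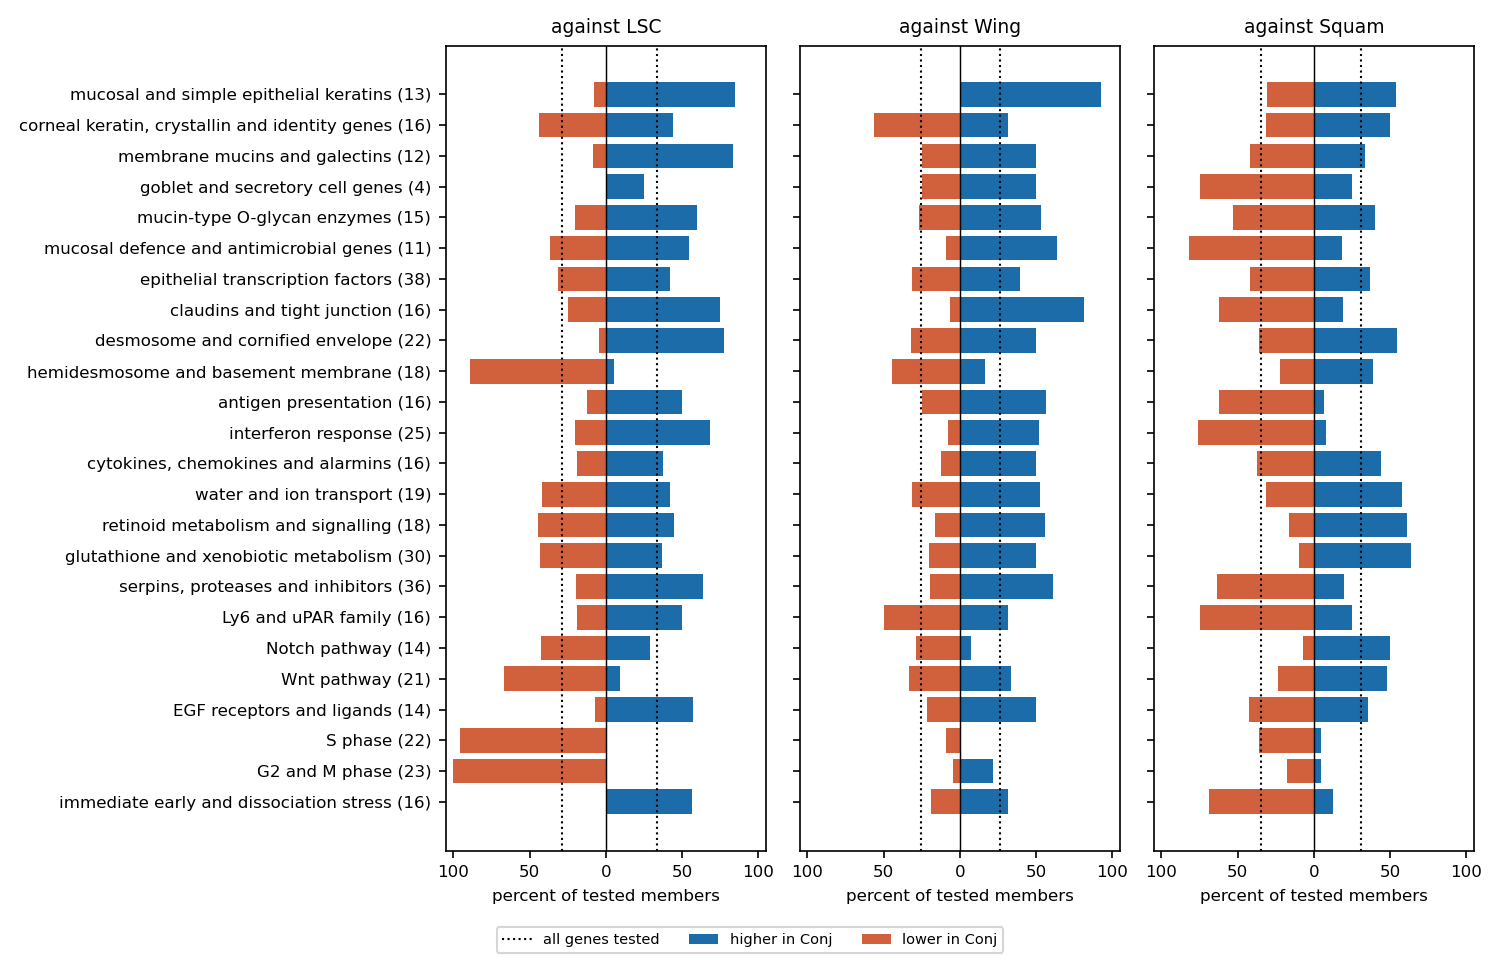
Percentage of tested members of 24 gene lists that were higher (right) or lower (left) in conjunctival cells than in LSC, Wing and Squam at adjusted p under 0.05 with TMM scaling, with dotted lines at the percentages of all 13472 genes. Keratin, claudin and desmosome lists lie to the right against LSC, and interferon and defence lists lie to the left against Squam.

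Single classes differed in other genes. Adh6a, an alcohol dehydrogenase, was at 293 against 19.7 CPM in LSC (3.97 higher, SE 0.15) and Tspan1, a tetraspanin, at 74.6 against 5.89 CPM (3.78, SE 0.25). The limbal genes Igfbp2 and Igfbp7, which bind insulin-like growth factors, were at 3.31 and 2.31 CPM against 196 ± 79.7 and 116 ± 31.9 CPM. Against Wing, Alox12e, a lipoxygenase, was higher by 6.77 (157 against 1.45 CPM), and Slurp1, a secreted Ly6 protein of the cornea, lower by 3.17 (827, 1089 and 1313 CPM against 9611 ± 593). Against Squam, Serpinb3a, one of a family of close copies, was at 443 ± 73.2 against 4.93 CPM, and Lce3a, a late cornified envelope protein, at 5.89 against 4991 ± 3138 CPM.

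The class was not uniform. Clustering its 2422 cells gave 9 subgroups, described by number and without a test, since the clusters were made from the same cells. The division depended on the settings: 7 other clusterings gave 5 to 12 subgroups and an adjusted Rand index against these 9 (1 for the same division) of 0.44 to 0.68. CPM here are of each subgroup's own total with the 3 libraries pooled unless values are given by library. Subgroup 1, the largest with 593 cells, held 27.2, 26.8 and 21.2% of conjunctival cells in libraries 1, 2 and 3. It had the most Krt5 (13216 CPM), and Krt15 at 33991, with Trp63, a basal cell factor, at 91.8, and its leading genes were Epas1, Lgi2, Cyp2f2, Lars2 and Alas1. Subgroup 2 (516 cells) led with Cyp2a5 (1346, 1314 and 1056 CPM by library) and St3gal4, and had 4766 CPM of Krt19. Both leading genes were higher in subgroup 7, at 1599 against 1234 CPM for Cyp2a5 and 114 against 65.8 CPM for St3gal4. Subgroup 3 (401 cells) led with Psca, at 7048, 3895 and 9762 CPM by library, and Nccrp1. Its Krt13 was at 9323, 11084 and 9173 CPM by library, close to the 8899, 11097 and 9085 CPM of subgroup 5.

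Subgroup 4 (294 cells, 12.3, 7.55 and 15.8%) had the most Krt12, at 13643, 12798 and 12912 CPM by library. It led with Lypd2, Rgs10 and Mgarp, with Krt7 at 34.3 CPM and Krt19 at 1485. Subgroup 5 (258 cells) led with Krt23, Plekhs1, Chac1, Tspan1 and Ifit1bl1 and had the most Krt7 (2225 CPM), Muc4 (2410) and Muc1 (384). Subgroup 6 (168 cells) led with Slc6a6 and held Itgb4 (57.9 CPM) and Col17a1 (442). The corneal genes Tkt (3011 CPM) and Dapl1 (1321) were higher in it than in subgroup 4 (915 and 412 CPM). In subgroup 6, 106 cells (63.1%) were among the highest doublet scores. The whole class was therefore also fitted without it, and the number of genes lower than each class then rose from 275 to 517.

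Subgroup 7 held 112 cells. The lipoxygenases Alox15 (323, 556 and 351 CPM) and Alox12e (992, 1186 and 961 CPM), Krt8 (291, 514 and 445 CPM) and Tppp3 (355, 453 and 485 CPM) were among its leading genes and high in every library. Another, Wfdc18, was high in library 2 alone, at 21.3, 733 and 15.6 CPM. The subgroup had the most Krt4 (6402 CPM), Krt19 (5389) and Agr2 (143). None of its cells was among the highest doublet scores. It shared 86.3% with its best match at resolution 0.8 (cells in both as a percentage of cells in either), but 15.3% at resolution 0.3, 13.7% with 30 neighbours and 15.6% without library 2. Subgroup 8 was nearly confined to 1 library, with 0, 58 and 7 cells (0, 6.84 and 0.674%). It led with Krt16, a keratin of stressed epithelium, at 12492 and 6862 CPM in libraries 2 and 3, and had Krt14 at 6990 and 977 CPM there. Subgroup 9 had 15 cells of library 1, of which 11 were among the highest doublet scores, and is not described.

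**Figure D5:**
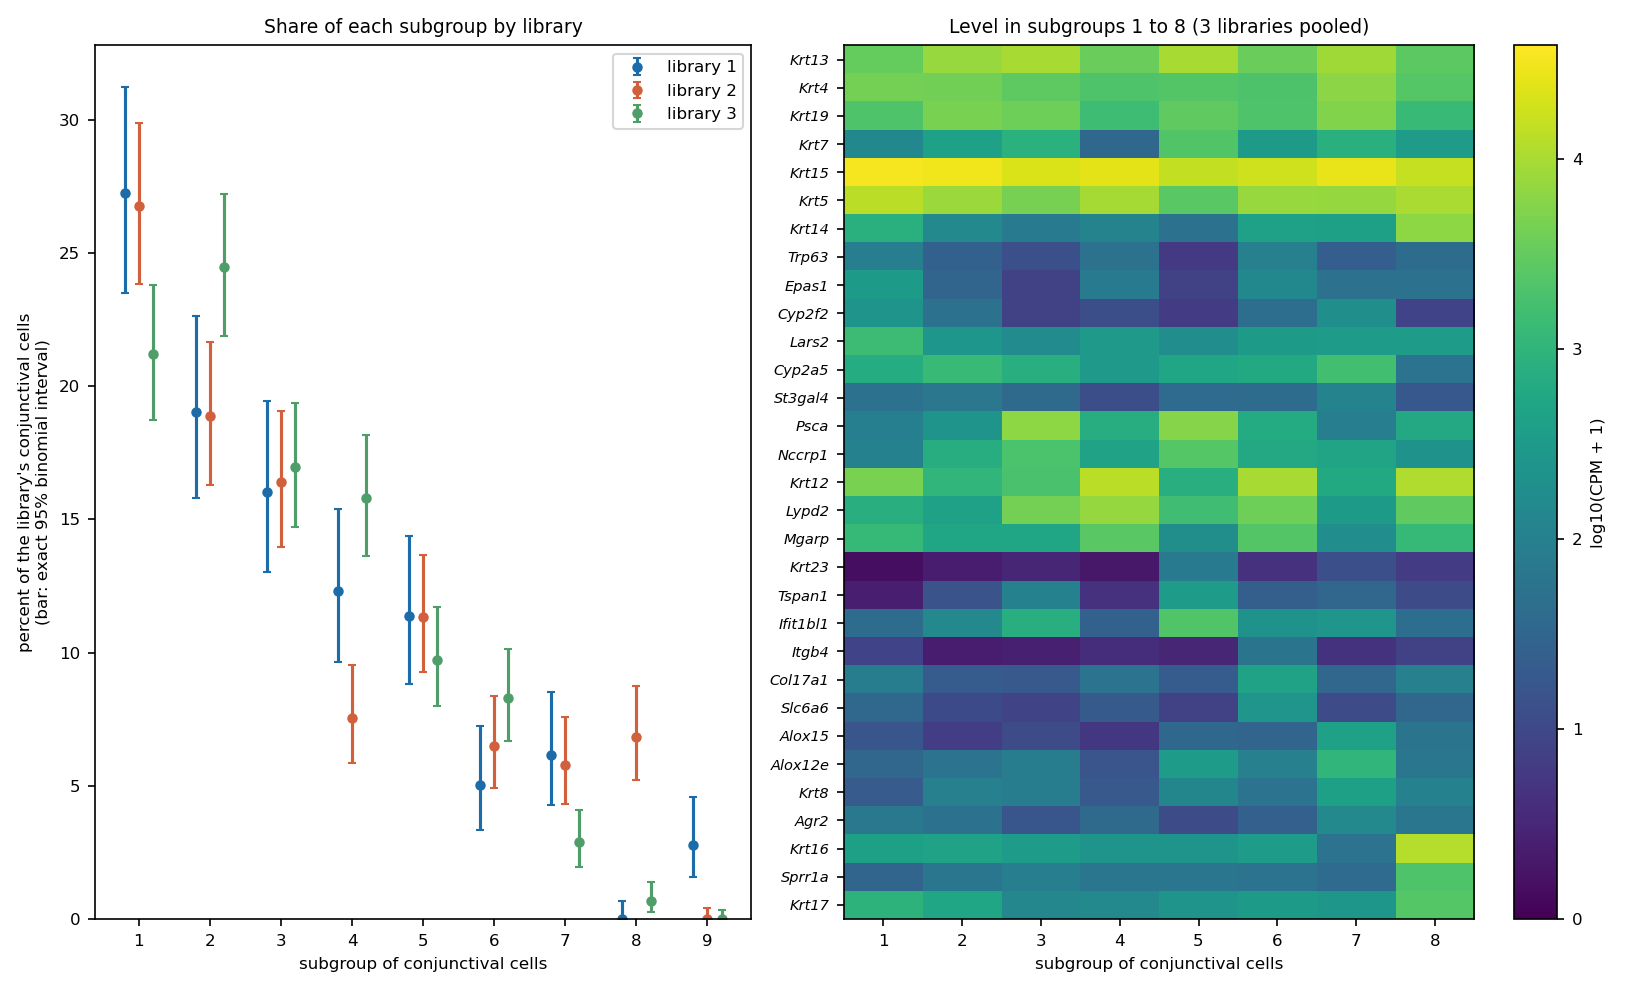
Left, percentage of conjunctival cells of each library in subgroups 1 to 9, with exact 95% binomial intervals that cover counting error only. Right, level of named genes in subgroups 1 to 8 as log10 of own-total CPM plus 1, with libraries pooled. Subgroup 8 lies at 6.84% in library 2 and at 0% in library 1, and subgroup 4 has the most Krt12.

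To see how the label held at lower depth, each cell was reassigned from 50% of its UMIs to the class whose summed profile over all genes gave them the highest multinomial likelihood. Every gene was kept, so this does not show whether the label rests on single genes. Of the 2422 cells 1898 (78.4%) stayed conjunctival, 193 went to Wing, 186 to LSC and 145 to Squam, and 749 Wing, 37 Squam and 31 LSC cells came in. Subgroups 2 and 7 kept 515 of 516 and 111 of 112 cells. Subgroup 1 gave 138 cells to LSC, subgroup 4 gave 93 to Wing and subgroup 5 gave 106 to Squam, while subgroup 6 kept 87 of its 168 cells. On the other 50% of UMIs with the reassigned classes, Krt4, Krt19, Krt8, Krt15 and Cyp2a5 exceeded each class. These UMIs are of the same cells, and the reassignment used these genes and profiles made with the deposited labels. The result is therefore no separate support for the 5 genes.

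Libraries differed in a few genes. Of 1123 genes with at least 100 CPM of the class's own total in a library, the median range over libraries was 0.22 (log2), and 19 ranged over more than 1, with 15 of these highest in library 2. The widest were Krt14 (121, 1255 and 58.5 CPM), Krt16 (107, 1824 and 291 CPM), Sprr1a (22.5, 312 and 57.3 CPM) and Lgals7 (44.9, 286 and 32.7 CPM). Without subgroup 8 library 2 had 610 CPM of Krt14 and 623 of Krt16, still above the other libraries. Krt16 exceeded each class with TMM and with own totals, but not without subgroup 8, without library 1, without the library block or with DESeq2. In LSC, Wing and Squam cells Krt14, Krt16 and Krt17 were also highest in library 2. That library was the only one from females, and its sex, age and pool cannot be told apart.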

How the data were processed

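The values deposited by the authors were UMI counts, whole numbers without normalisation, of 17931 genes in 38111 cells, and a deposited table gave each cell's library and class. Per the submitters' processing notes Cell Ranger 5.0.0, Seurat 4 and mm10 were used. Strand handling, filters and the making of classes were not given in the sources used here. Library 1 was matched to its labels by elimination. Members and gene lists were chosen with earlier results of these data known.

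Counts were summed by library and class (21 sums), filtered with filterByExpr (13472 genes) and fitted with edgeR 4.0.16 (R 4.3.3; TMM, robust quasi-likelihood, library as a block by construction, because the classes of a library come from the same pool). The threshold was an adjusted p of 0.05. The common biological coefficient of variation was 0.0637. On data simulated for the contrast with the mean of the others (13021 genes), 77.38, 87.04 and 91.94% of changes of 1.5-, 2- and 4-fold were recovered, with 0.031% false calls. The simulated classes shared the same mean for each gene and the same dispersion for all genes. Only a small part of the genes was changed, in conjunctival cells alone. These rates therefore do not cover real data in which most genes differ and the scaling shifts the calls. Cells were thinned to 2000 UMIs for shares and genes per cell. Doublet scores came from scanpy 1.11.5. Subgroups came from scikit-learn 1.9.0 and leidenalg 0.10.2 (2000 variable genes, 20 components, 15 neighbours, resolution 0.5). Each library's mean was subtracted from each gene before clustering.

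Named genes were the largest changes at 50 CPM for each contrast, the 2 most abundant and 2 most changed members of each list, the 5 leading genes of each subgroup and the 8 widest between libraries; others named were chosen after their values were seen, and a few that the rule names are not reported here. Genes were placed with GENCODE M21, in which 17641 symbols matched. Because reads lie at 3′ ends, values of close copies (Krt6a and Krt6b, Cyp2a, Gsta, Serpinb3, Sprr and class I genes) are uncertain.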

Additional observations from a re-analysis of the deposited data

How the results depend on the processing

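Each alternative changed 1 choice, except that the reassigned classes were fitted on 50% of the UMIs. Library totals with no further scaling and the fits without subgroup 6 or subgroup 8 were chosen after seeing the data. Against the mean of the others 6 of the 103 genes named changed direction, each in 1 setting. Psca (1.95), Krt23 (2.99), Plekhs1 (2.66) and Chac1 (2.43) went to -1.50, -1.13, -1.10 and -1.27 (log2) where the 6 classes were summed into 1 before fitting. A sum adds counts, so classes with more UMIs or a higher level weigh more than in a mean of log2 levels. For Krt23 the conjunctival level of 12.9 CPM also lay below the equal-weight mean CPM of the 6 classes (58.6). Epas1 went from -0.21 to 0.0038 (adjusted p = 0.987) with thinned cells, and Lypd2 from -1.17 to 0.32 with reassigned classes on 50% of the UMIs (-1.19 with the deposited classes on the same UMIs).

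Thinning every cell to 2000 UMIs, which leaves fewer reads, gave 2922 genes higher and 2640 lower than the mean of the others (4954 and 4558 with all reads), 266 and 101 genes higher and lower than each class (598 and 275), and 4672, 6786, 6862, 3613 and 5552 called against LSC, Basal, TAC2, Wing and Squam (8395, 10280, 10408, 6977 and 8798). Equal cell numbers gave 371 and 137 genes higher and lower than each class and 4048 called against Wing. With no replicate block 373 and 162 genes were higher and lower than each class, and all 373 were among the 598. Leaving out 1 library gave 395 to 545 and 151 to 246, the lowest without library 1. Library totals with no further scaling gave 156 lower than each, and the cause of that change was not tested. Without subgroup 6, which has many high doublet scores, 517 were lower than each, and the part of doublets in this was not tested.

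Of the genes called, the share higher went with own totals from 52.0 to 34.0% against Basal, from 50.4 to 34.4% against TAC1 and from 49.9 to 30.5% against TAC2, and with no filter on low counts from 50.6 to 39.9% against Wing. With 30 neighbours the class fell into 5 subgroups, with an adjusted Rand index of 0.61, and without library 2 into 7, with one of 0.44. Genes per cell differed by -12.9 at 4000 UMIs. Depth limits genes near 0 counts, such as Spdef. With 3 pooled libraries, 1 per combination of age and sex, p-values cover the spread of these pools only.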

Other observations

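Sialic acid genes were looked at after St3gal4 and Cmah had been seen among the genes highest over every class. The set was therefore chosen after its values were known and has no test of its own. Nans, Nanp and Neu1 were looked at with it, but their values are not reported here. Sialic acids are acidic sugars that end many mucin glycans. Cmas, which activates sialic acid for transfer, was at 574, 535 and 651 CPM in conjunctival cells of libraries 1, 2 and 3, against 348 ± 26.8 CPM in Squam, 248 ± 13.2 in Wing and 89.8 ± 26.8 in LSC. Cmah, which converts the activated sugar to its glycolyl form, was at 304, 326 and 269 CPM against 124 in Squam, 88.0 in Wing and 79.1 in LSC. All 3 libraries lay above the other class means for both genes. The smallest differences were 0.75 (log2, SE 0.09) for Cmas and 1.28 (SE 0.11) for Cmah, both against Squam. Both exceeded each class under both scalings. Gne, the first enzyme of the pathway, was at 51.6 CPM and lower than in Squam (114 CPM) by 1.15 with TMM and 0.29 with own totals. Slc35a1, the transporter of activated sialic acid, was at 232 CPM against 238 in Squam, and higher than in Squam by 0.81 with own totals. St6gal1, which adds sialic acid in another linkage, was at 2.03 CPM.

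Of other genes over 2-fold above each class under both scalings, Oit1 was at 200.2, 249 and 201 CPM against 78.9, 124 and 96.2 in Squam (1.13, and 1.48 with own totals).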
